A study of Mus musculus with 8 samples.

Results

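NMDA-only CTCF regions at gene ends are places where chromatin immunoprecipitation and sequencing (ChIP-seq) found CTCF in NMDA-stimulated mouse cortical neurons and no control region overlapped. They were chosen by 2 criteria: a region of the NMDA list that overlapped no region of the control list, not even by 1 bp, and a summit no more than 1 kb from an end of a protein-coding gene in the annotation. This gave 831 regions among the 36186 of the NMDA list on chromosomes 1 to 19, X and Y. They were 14.8% (95% Wilson interval 13.9 to 15.7) of the 5616 NMDA-only regions, which were themselves 15.5% of the NMDA list. Of the 6221 NMDA-list regions at gene ends, 13.4% (12.5 to 14.2) were NMDA-only.

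The neurons were wild-type primary cortical cells from Swiss-Webster embryos of embryonic day 16, kept in culture until day 13 in vitro. The control group was labelled as having no treatment. The NMDA group received 50 µM NMDA for 10 minutes, followed by a washout and 50 minutes in medium free of the drug. Each group had 2 ChIP replicates, called biological replicates in the labels, and the authors deposited 1 list of reproducible regions for each condition over both replicates. A growth protocol common to all samples also mentions etoposide, which no sample has as its labelled treatment. Whether a region was NMDA-only therefore rested on 1 list against 1 list, no difference between the conditions could be set against the spread of replicates, and every interval given here covers counting error only. The lists hold no expression values, so the labelled cell type could not be checked against marker genes.

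CTCF recognises a long asymmetric DNA motif through its zinc fingers, blocks the extrusion of chromatin loops by cohesin and so sets the borders of loops and domains. It also binds at many promoters, where it can bring distant enhancers close to a gene start. NMDA opens a class of calcium-permeable glutamate receptors, and the calcium entering through them starts a programme of activity-dependent transcription in neurons.

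The members with a recognisable CTCF core motif under the summit show what sequence is meant. The motif was searched as 12 bases with 8 fixed letters: CCA, 2 free bases, AG, 2 free bases and GGC, on both strands. The search used the promoter windows that RefSeq gives for GRCm38.p6, from 250 bases before to 50 after an annotated transcript start, and 133 of the 831 summits lay in such a window. The motif was in the window of 11 of these 133, and the 6 with the highest smaller replicate value are printed here because they are the members in which the deposited region and the motif can be seen together. Each is read 5′ to 3′ along its gene, with the motif in capitals. On a gene's own strand it appears as written above, as in Zscan20 and Calhm5, and on the other strand as its reverse complement, as in the other 4.
Stoml2: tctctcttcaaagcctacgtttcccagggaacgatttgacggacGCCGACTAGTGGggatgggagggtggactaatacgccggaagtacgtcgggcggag
Zscan20: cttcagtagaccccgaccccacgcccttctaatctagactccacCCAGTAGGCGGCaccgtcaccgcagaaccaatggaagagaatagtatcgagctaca
Calhm5: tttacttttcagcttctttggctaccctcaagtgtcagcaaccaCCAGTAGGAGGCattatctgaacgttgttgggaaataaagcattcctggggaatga
Psat1: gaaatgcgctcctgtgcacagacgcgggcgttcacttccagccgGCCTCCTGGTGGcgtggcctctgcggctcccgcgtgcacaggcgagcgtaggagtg
Bri3bp: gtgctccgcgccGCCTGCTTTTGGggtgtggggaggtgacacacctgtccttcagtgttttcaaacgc
Ppara: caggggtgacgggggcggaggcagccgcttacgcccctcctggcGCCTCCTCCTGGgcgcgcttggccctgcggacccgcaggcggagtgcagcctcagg

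These stretches lie at chr4:43031469-43031568 (minus strand) for Stoml2, which encodes a protein of the mitochondrial inner membrane, and at chr4:128610247-128610346 (minus) for the zinc finger gene Zscan20. Calhm5, a member of the calcium homeostasis modulator family, has its stretch at chr10:34096592-34096691 (minus). That of Psat1, an enzyme of serine synthesis, is at chr19:15924643-15924742 (minus). Bri3bp follows at chr5:125441318-125441385 (plus) and Ppara, a nuclear receptor gene of fatty acid metabolism, at chr15:85735548-85735647 (plus). The middle of the motif lay 19 bp from the summit at Ppara, 37 bp at Calhm5, 47 bp at Zscan20, 59 bp at Psat1, 102 bp at Stoml2 and 149 bp at Bri3bp. All 6 motifs lay before the annotated start, by 70 bp at Psat1 to 232 bp at Bri3bp.

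The strongest members whose summit lay in a promoter window had no match to the motif there. The windows of the first 3, Asb1, Tufm and Polrmt, are printed whole, with each CG dinucleotide in capitals, because these regions had the highest smaller replicate value among the members in a window without the motif.
Asb1: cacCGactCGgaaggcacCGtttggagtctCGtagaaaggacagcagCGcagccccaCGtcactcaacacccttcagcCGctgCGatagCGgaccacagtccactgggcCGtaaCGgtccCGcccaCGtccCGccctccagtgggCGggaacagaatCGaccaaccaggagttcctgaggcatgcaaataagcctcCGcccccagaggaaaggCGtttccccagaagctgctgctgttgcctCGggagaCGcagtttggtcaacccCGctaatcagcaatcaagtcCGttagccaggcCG
Tufm: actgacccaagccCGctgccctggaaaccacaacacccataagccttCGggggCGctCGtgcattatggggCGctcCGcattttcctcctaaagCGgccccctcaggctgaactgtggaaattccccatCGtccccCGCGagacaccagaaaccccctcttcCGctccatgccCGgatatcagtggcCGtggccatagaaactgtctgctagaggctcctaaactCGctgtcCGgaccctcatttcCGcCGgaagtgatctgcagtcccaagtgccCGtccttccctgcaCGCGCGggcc
Polrmt: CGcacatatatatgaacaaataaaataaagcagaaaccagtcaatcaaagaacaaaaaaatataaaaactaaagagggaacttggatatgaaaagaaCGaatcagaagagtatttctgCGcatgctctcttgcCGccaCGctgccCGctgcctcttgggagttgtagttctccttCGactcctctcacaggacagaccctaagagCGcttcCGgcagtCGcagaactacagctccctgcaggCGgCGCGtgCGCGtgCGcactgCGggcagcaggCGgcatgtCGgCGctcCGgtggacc

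They lie at chr1:91540315-91540614 (plus strand) for Asb1, chr7:126487105-126487404 (plus) for Tufm and chr10:79746532-79746831 (minus) for Polrmt. Their GC content was 61.7%, 61.7% and 52.0%, and they held 23, 21 and 21 CG dinucleotides. The ratio of observed to expected CG was 0.819 at Asb1, 0.778 at Tufm and 1.04 at Polrmt, against a median of 0.567 over all 21238 promoter windows of protein-coding genes. These were thus windows rich in CG without the core motif in the form searched, which says nothing on whether CTCF binds there through other letters.

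Of the 133 members with the summit in a promoter window, 8.27% (4.68 to 14.2) had the core motif there. Among all 21238 windows, of the same length, the share was 2.34%. The units differ for every motif share given here. A summit in several windows counted if any of them held the motif, which can raise the share of its class. All windows were counted singly. Shared regions, meaning NMDA-list regions that overlapped a control region, had the core motif at 11.6% (137 of 1177 summits in a window), and control-only regions at 4.20% (5 of 119). The difference between members and shared regions was −3.37 percentage points, with a 95% Newcombe interval of −7.46 to 2.80 that included 0. With a looser motif (CC, 3 free bases, AG, 2 free bases, GGC) the shares were 23.3% of members, 35.9% of shared regions and 9.87% of all windows, and the difference of −12.5 points (−19.5 to −4.23) did not include 0. Signal is the strength that the authors gave each region. Among regions of the same signal range, described further on, 6 of 70 member summits in a window and 1 of 64 shared ones had the stricter motif. This was a difference of 7.01 points (−1.17 to 16). For the looser motif these were 15 of 70 and 10 of 64, a difference of 5.80 points (−7.63 to 18.8). Both intervals in that range included 0. Control-only regions had the looser motif at 15.97% of their summits in a window (19 of 119). The windows of members had a median GC content of 65.0% and a CG ratio of 0.808, close to the 63.7% and 0.798 of shared regions and above the 56.3% and 0.567 of all windows.

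Most of the regions lay at gene starts. The strand of a gene was known for 17492 of 21887 protein-coding genes, from the RefSeq promoter table. By the nearest gene end, 565 members lay at a start, 95 at a 3′ end and 171 at an end whose strand was not known. Of the 660 with known strand, 85.6% (82.7 to 88.1) were at a start. This was above the 79.99% (3398 of 4248) of shared regions, by 5.62 points (2.50 to 8.38), while the difference from the 89.3% (490 of 549) of control-only regions, −3.65 points (−7.35 to 0.140), had an interval that included 0. The difference from shared regions ended when strength was held equal. Within the signal range between the quartiles of the members, 21.8 to 30.6, starts made up 86.4% (286 of 331) of members and 87.4% (334 of 382) of shared regions, a difference of −1.03 points (−6.09 to 3.91). It also lost its side of 0 with a stricter score, at 1.43 points (−5.74 to 7.11), and with the NMDA list limited to the length of the control list, at 2.73 points (−1.61 to 6.46).

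Counted as genes, an NMDA-only region lay within 1 kb of an end of 936 among 21887 protein-coding genes (4.28%). Of the 17492 genes of known strand, 640 (3.66%) had it at the start and 114 (0.652%) at the 3′ end. Shared regions lay at an end of 5645 genes (25.8%) and control-only regions at an end of 772 (3.53%). Of the 936 genes, 117 (12.5%) also had a shared region at an end and 17 (1.82%) a control-only region. Unnamed gene models made up 28 of the 936 (2.99%, 2.08 to 4.29), against 1956 of all 21887 protein-coding genes (8.94%).

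Around a start, the summits lay mostly just inside the gene. Of the 565 members at starts, 403 (71.3%, 67.5 to 74.9) had the summit downstream of the start, with a median position 195 bp inside. The fullest bin of 100 bp was that from 200 to 300 bp inside, with 93 summits or 16.5%. Shared regions had a median position of 72.5 bp inside, their fullest bin was that ending at the start itself (13.3%), and 56.2% of their summits were downstream, which put members 15.1 points higher (10.9 to 19.1). Shared regions in the members' signal range had the median at 221 bp inside and 76.3% downstream, and in that range members were lower by 3.62 points, with an interval from −10.5 to 3.22. Control-only regions, chosen the same way from the other list, had the median at 206 bp inside and 73.1% downstream.

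**Figure D1:**
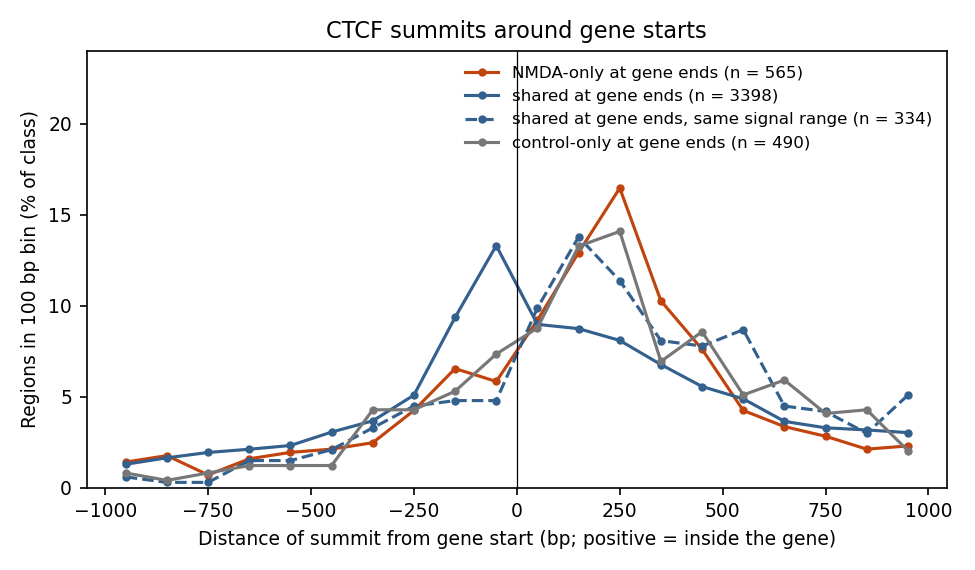
Share of regions per 100 bp bin (y axis, percent of each class) against the distance of the summit from the annotated gene start (x axis, bp, positive inside the gene), for regions whose nearest end is a start. NMDA-only regions (n = 565), control-only regions (n = 490) and shared regions of the same signal range (n = 334, dashed) all have most summits inside the gene, while shared regions as a whole (n = 3398) have their highest point just before the start.

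Summits within 250 bp of the start made up 45.8% (259 of 565) of members and 47.9% of shared regions, a difference of −2.01 points with an interval that included 0 (−6.41 to 2.44). Starts of genes on both strands, as at divergent promoters, lay within 1 kb of 69 of the 578 members with any start that near (11.9%), against 8.03% of shared regions. This difference of 3.91 points (1.33 to 6.93) was 2.44 points (−2.22 to 7.28) in the same signal range. In all, 119 members (14.3%) lay within 1 kb of the ends of 2 or more genes. At the 95 3′ ends, 36 summits lay inside the gene and the others beyond it.

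The members were weak regions of the NMDA list, which is in part what a rule of no overlap selects. Signal here is the −log10 p-value of a region, the authors' own, and it is the sum of 2 columns with a value for each replicate. The sources do not say which replicate each holds, and the names first column and second column follow only their order. Over the 831 members the signal ran from 18 to 146 with a median of 25 (quartiles 21.8 and 30.6), and shared regions at gene ends had a median of 106. The first column ran from 7.41 to 54.6 with a median of 11.5, and the second from 8.84 to 123 with a median of 13.1. Of the members 493 were in the lowest signal decile of the NMDA list and 222 in the next, and 828 of 831 were below the median of the list. The score of reproducibility, which has a ceiling of 1000, was at that ceiling in 70 members (8.42%) and in 80.2% of shared regions at gene ends. Many members had the same low values: the first column took 392 distinct values over the 831 regions, and its most common value, 9.02, occurred in 33 of them.

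The 2 replicate columns were of similar size in most members. The second column was higher in 511 members (61.5%, 58.1 to 64.7), and the 2 columns were within 2-fold of each other in 757 (91.1%). The median log2 ratio of the second to the first column was 0.16 in members, 0.25 in shared regions at gene ends and 0.48 in NMDA-only regions away from gene ends. In the same signal range these medians were 0.15, 0.13 and 0.38. NMDA-only regions at gene ends were thus nearer to shared gene-end regions than to other NMDA-only regions in how their 2 columns compared. The columns measure strength of evidence in libraries of unknown depth, so a ratio above 0 on the log2 scale is not by itself more CTCF in a replicate.

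**Figure D2:**
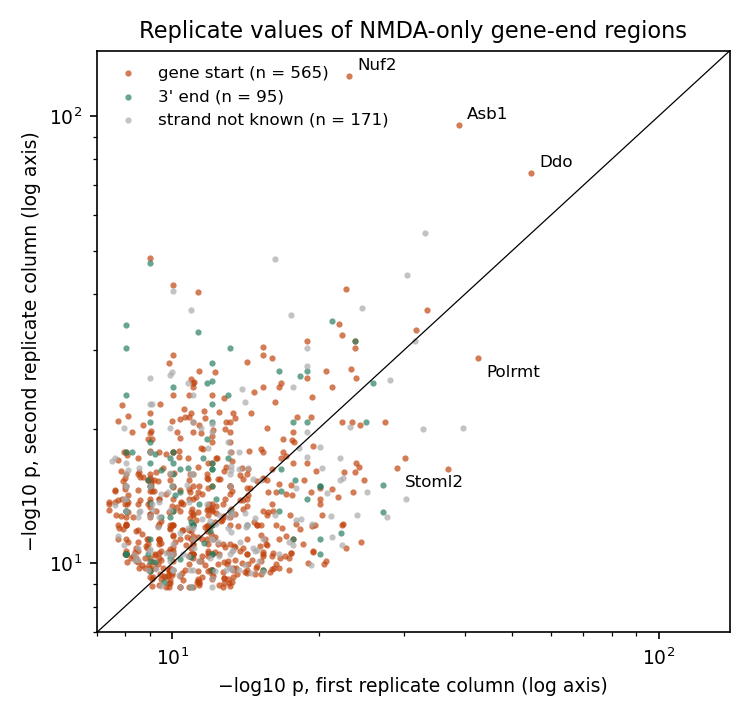
Second replicate column against first replicate column (both −log10 p, log axes) for the 831 NMDA-only regions at gene ends, coloured by the kind of gene end, with a line of equality and 5 regions of the text named. Most points lie close to the line at low values, with 757 of 831 within 2-fold, and Nuf2 stands far above it at 23.1 and 123.

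The strongest member by its smaller replicate value lay before the start of Ddo, the gene of D-aspartate oxidase (chromosome 10, 40628743 to 40629770, GRCm38), with 54.6 in the first column and 74.4 in the second. Its summit was 663 bp upstream of the start and the nearest control region 19617 bp away. At Asb1, which encodes a substrate adaptor of a ubiquitin ligase (chromosome 1, 91539677 to 91541290), the columns had 38.8 and 95.6. Both regions were far above the member medians of 11.5 and 13.1 in each replicate.

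Cplane2, a gene of ciliogenesis and planar polarity, followed with 33.5 and 36.8 (chromosome 4, 141213892 to 141215151). Cxxc1, whose product binds unmethylated CpG within a histone H3K4 methyltransferase complex, had 33.1 and 54.9 at an end of unknown strand (chromosome 18, 74215664 to 74216772). Tufm, the mitochondrial elongation factor Tu, had 31.6 and 33.1, with the summit 94 bp before the start (chromosome 7, 126486688 to 126487737). In these 3 regions, as in the first 2, neither replicate was low.

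Guf1, a mitochondrial translation factor, had 30.3 and 44 (chromosome 5, 69556612 to 69557410). Polrmt, the mitochondrial RNA polymerase, had 42.6 and 28.8, with the summit 25 bp inside the gene (chromosome 10, 79746314 to 79748101). Mrpl45, a protein of the large mitochondrial ribosomal subunit, had 23.8 and 30.3 (chromosome 11, 97313882 to 97315069). Among these 3 the first column was the higher at Polrmt alone.

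The next 4 are given in no order of function. Psmd7, a subunit of the proteasome lid, had 24.5 and 37.1, with the summit 13 bp from the gene end (chromosome 8, 107587812 to 107589241). Mdm2, the ubiquitin ligase of p53, had 23.8 and 31.4 at its 3′ end (chromosome 10, 117687666 to 117689171). The same 2 values were recorded at Atg9a, an autophagy gene that shares its region with Ankzf1 (chromosome 1, 75191315 to 75192537). Kntc1, a kinetochore gene, shared a region with Rsrc2 and had 22.1 and 34.3 (chromosome 5, 123749382 to 123750267).

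The remaining named members of the 20 were spread over unrelated functions. Atp6v0e, a subunit of the vacuolar proton pump, had 25.9 and 25.4 at its 3′ end (chromosome 17, 26698525 to 26699595). Zfp953 had 23.8 and 25.9 (chromosome 13, 67359768 to 67360837) and Cd320, the receptor for the vitamin B12 carrier transcobalamin, had 23.3 and 27.2 (chromosome 17, 33843076 to 33843746). Lztr1, an adaptor that directs Ras proteins to a ubiquitin ligase, shared its region with Aifm3 and had 22.3 and 32.3 (chromosome 16, 17508025 to 17509377). Of these 4 regions, that of Atp6v0e had the most equal columns. The 3 gene models without an established name, 2700062C07Rik, Gm38664 and 6430548M08Rik, complete the 20 together with Nuf2.

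The 2 columns were far apart at a small number of members. Nuf2, a kinetochore gene, had the highest summed signal of all members, but 123 of it was in the second column and 23.1 in the first (chromosome 1, 169531446 to 169532749). The region at Tpmt and Kdm1b, a methyltransferase of thiopurine drugs and a histone demethylase, had 9.02 and 48.1 (chromosome 13, 47041907 to 47043177). That at Ppwd1 and Trim23 had 9.02 and 46.8 (chromosome 13, 104203749 to 104205036). These had the highest log2 ratios among members above the upper quartile of signal, 2.41 at Nuf2, 2.41 at Tpmt and 2.38 at Ppwd1, followed by Mettl6 (2.08) and the lipid transporter gene Abca7 (2.06).

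In the opposite direction the ratios were smaller. Ufc1, the conjugating enzyme of the ubiquitin-like modifier UFM1, had 36.9 in the first column and 16.2 in the second (chromosome 1, 171294208 to 171295094), a log2 ratio of −1.18. Actl6a, an actin-related subunit of BAF chromatin remodelling complexes, had 24.4 and 11.2 (chromosome 3, 32708332 to 32709618). Slc6a8, the creatine transporter gene, had 27.6 and 12.7 (chromosome X, 73672046 to 73672667). No ratio among members was below −1.18, and these low ratios, like those at Aldh7a1 (−1.12) and Arpin (−1.07), were singled out after their values were seen. Ccdc117, with 39.6 and 20.0, had the third highest value in the first column after Ddo and Polrmt (chromosome 11, 5541440 to 5542783).

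In shape the members resembled weak shared regions at gene ends more than NMDA-only regions elsewhere. Their median width was 914 bp, against 1336 bp in shared regions at gene ends and 723 bp in NMDA-only regions elsewhere. In the same signal range the medians were 896, 933.5 and 665 bp. The summits called in the 2 replicates lay a median of 90 bp apart in members, 39 bp in shared regions and 42 bp in NMDA-only regions elsewhere, and in the same signal range 91, 85 and 47 bp. Replicate summits more than 100 bp apart were found in 391 members (47.1%, 43.7 to 50.5), in 46.1% of shared gene-end regions of the same signal range and in 21.3% of the NMDA-only regions elsewhere in that range. Weak regions at gene ends of both classes were thus wider than NMDA-only regions elsewhere of that range, with summits that moved more between replicates. They were narrower than shared regions at gene ends as a whole.

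**Figure D3:**
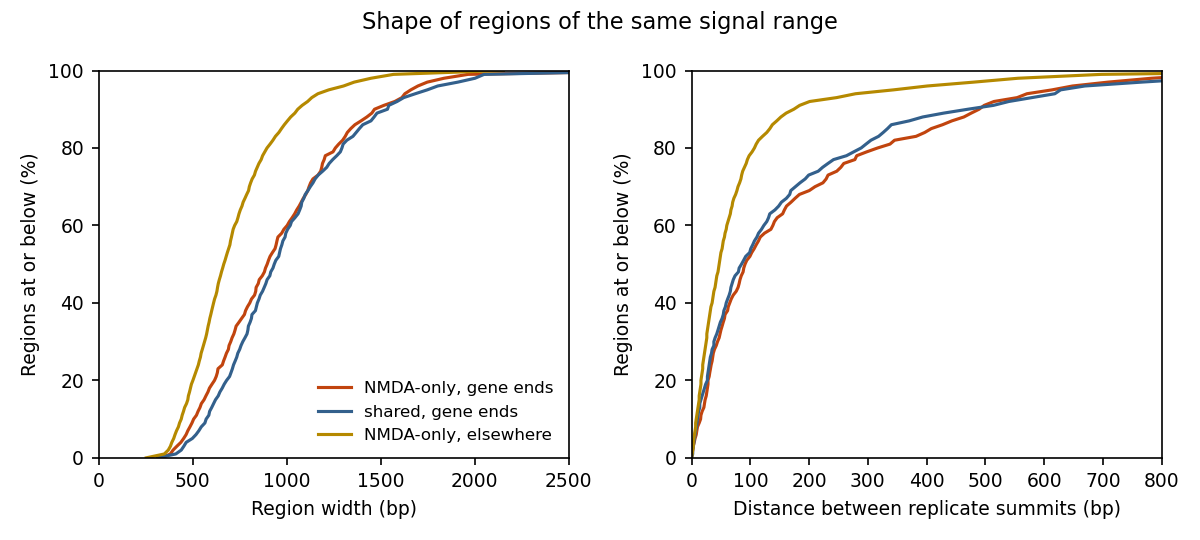
Cumulative share of regions (y axis, percent) by region width and by the distance between the 2 replicate summits (x axes, bp), for members, shared regions at gene ends and NMDA-only regions elsewhere, all limited to the same signal range. The curves of the first 2 classes run together (median widths 896 and 933.5 bp), while NMDA-only regions elsewhere are narrower (665 bp) with replicate summits closer together.

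Members at starts and at 3′ ends differed in the same way. The median width was 964 bp at the 565 starts and 724 bp at the 95 3′ ends, and the median distance between replicate summits 100 and 56 bp. Signals were alike, with medians of 24.6 and 26.8. The median log2 ratio of the columns was 0.15 at starts and 0.40 at 3′ ends. Values at 3′ ends were in these respects closer to those of NMDA-only regions away from gene ends. No test of the difference between starts and 3′ ends was made.

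The nearest control region was usually kilobases away. The distance had a median of 10075 bp (quartiles 3447.5 and 23113.5) and ran from 11 to 930011 bp. It was within 500 bp for 58 members (6.98%), within 1 kb for 97 (11.7%, 9.66 to 14) and within 10 kb for 415 (49.9%). NMDA-only regions away from gene ends lay farther off, with a median of 13504 bp. Among these, 3.41% had a control region within 500 bp, 7.34% (6.63 to 8.11) within 1 kb and 42.7% within 10 kb. The 97 members with a near control region had a median signal of 24.2 and the other 734 one of 25.2, so nearness did not go with a large difference in strength.

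**Figure D4:**
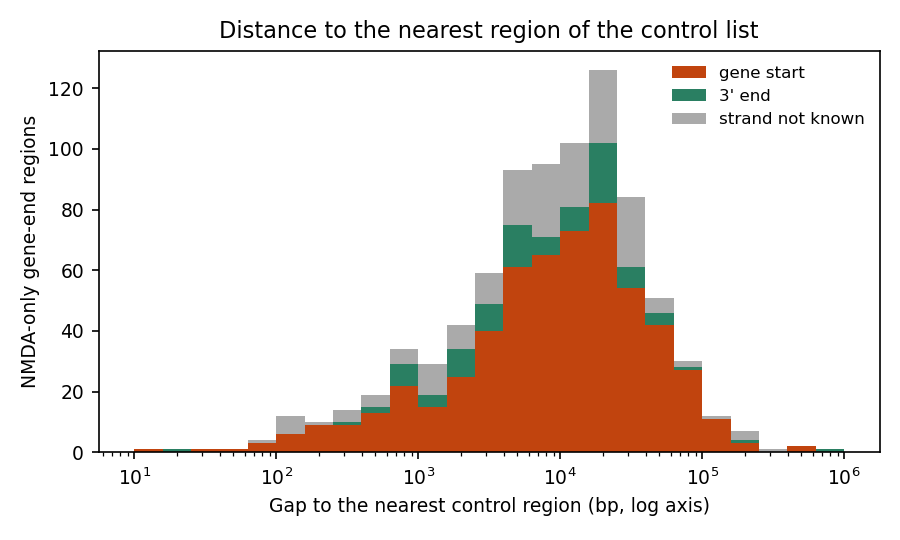
Number of NMDA-only gene-end regions (y axis, stacked bars) by the distance to the nearest control region (x axis, bp, log scale), coloured by whether the nearest gene end is a start, a 3′ end or of unknown strand. Most regions lie kilobases from any control region, with a median of 10075 bp, and a tail of 97 lies within 1 kb.

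At the edges of the rule, values are given for 2 regions on each side. Supt5, an elongation factor gene, had its NMDA region 11 bp from a control region (chromosome 7, 28337983 to 28338927, columns 16.8 and 12), and 4833420G17Rik 16 bp (columns 9.64 and 9.08). Outside, the region at Tomm40 overlapped a control region by 90 bp (columns 12 and 10.5) and that at Ddn by 136 bp (15.3 and 12.2). On distance, the summits at Fbxl19 (994 bp from the end, columns 17.9 and 15.3) and Arfgap1 (993 bp, 16.8 and 17.2) were inside. Those at Klc1 (1003 bp, 13.2 and 10.3) and Myom1 (1004 bp, 15.2 and 9.38) were outside. On distance, the 2 regions inside thus had the higher values in both columns. So few regions say nothing on strength inside and outside the limit in general.

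At 17 genes an NMDA-only region and a control-only region both lay at an end, which places CTCF calls of the 2 lists side by side. At Hs6st1, a heparan sulfate sulfotransferase gene, the NMDA-only summit lay 171 bp before the start and the control-only summit 585 bp inside (chromosome 1, 36068019 to 36068474 and 36068609 to 36069770). At Lrig1, a negative regulator of receptor tyrosine kinases, the NMDA-only summit lay 275 bp inside (chromosome 6, 94699084 to 94700718) and the control-only region was upstream (94701074 to 94701651). At other genes of the 17 the pair lay at opposite ends, as at Cib1 and B4galnt3. Signals of the 2 lists are not on a common scale, so they are not compared here. These loci were picked after the list of 17 was seen.

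Gene classes were compared with the 4.28% of all protein-coding genes that had a member at an end. Of 30 lists, 18 were above that share. Lying above the share of all genes was not particular to members. Most of the lists were also above it for shared regions (25.8% of all genes), and many for control-only regions (3.53%). All genes include the 1465 olfactory and vomeronasal receptor genes, of which 0.205% had a member. The lists were chosen with earlier results of these data known, so their counts are a description and carry no test, and short lists have wide intervals. Within a list, genes are ordered by summed signal, not by the smaller replicate value. A gene called strongest there can thus be low in a replicate column.

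**Figure D5:**
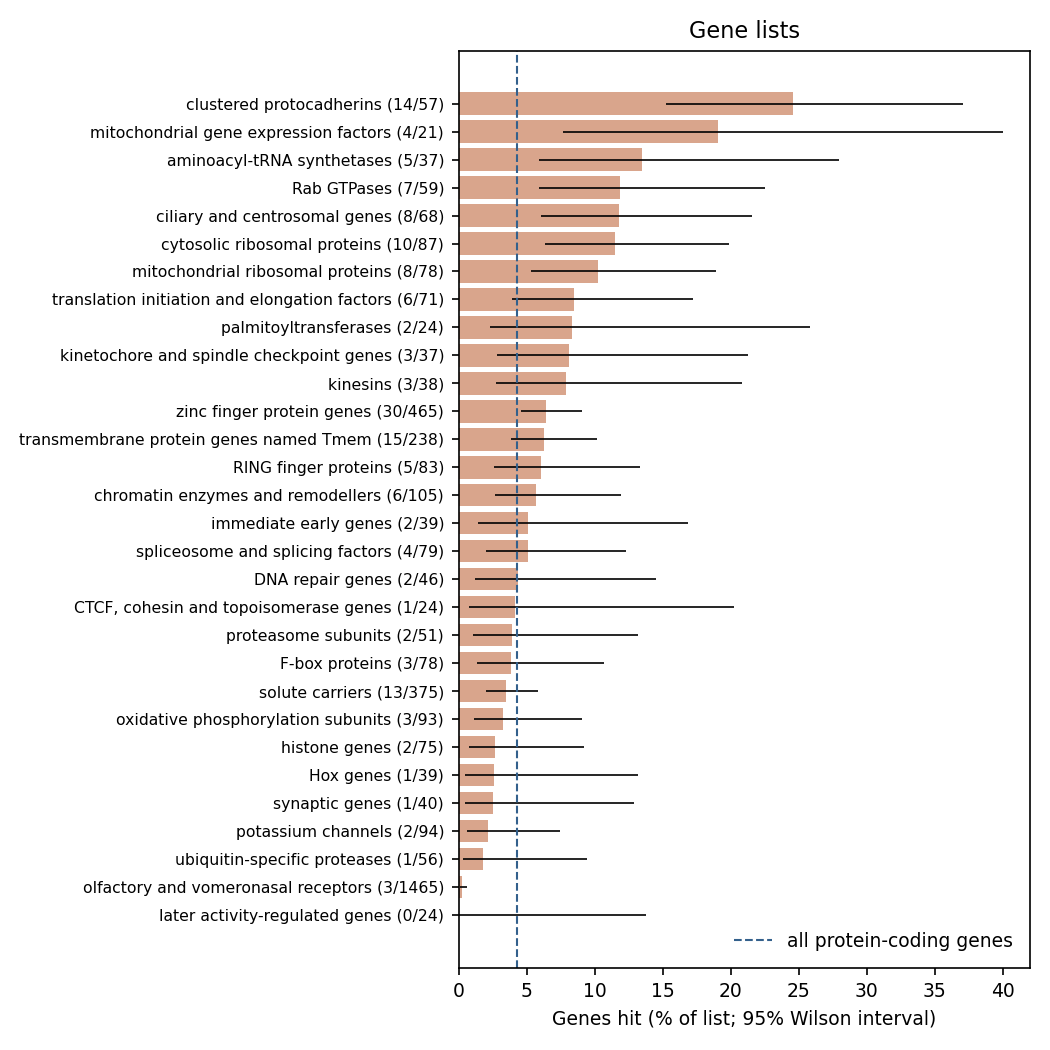
Percent of the genes of each list with an NMDA-only region within 1 kb of an end (bars, with 95% Wilson intervals as lines and the gene counts beside each name), with the 4.28% of all protein-coding genes as a dashed line. Clustered protocadherins (24.6%) and mitochondrial gene expression factors (19%) are highest, and olfactory and vomeronasal receptors (0.205%) lie far below the line.

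Lists of mitochondrial gene expression had shares above that of all genes, with wide intervals. Of 21 factors of mitochondrial gene expression, 4 (19%, 7.67 to 40.0) had a member: Guf1, Polrmt and Tufm, with the values above, and Slirp, an RNA-binding protein of mitochondria (columns 14.7 and 12.3). None of these 4 had a shared or control-only region at an end, but shared regions lay at an end of 10 of the 21 genes (47.6%), against 25.8% of all genes. Of 78 mitochondrial ribosomal protein genes 8 (10.3%, 5.29 to 19) had a member, of which 7 were at the start. After Mrpl45, Mrpl14 had 16.8 and 25.3 and Mrps24 20.6 and 9.94. Of 93 genes listed under oxidative phosphorylation only 3 (3.23%, 1.10 to 9.06) had a member. They were the respiratory chain and ATP synthase subunits Cox4i1 (13.2 and 16.5) and Atp5o (11.9 and 15.4), and Sdhaf1, which is an assembly factor and not a subunit (8.93 and 15.4). The respiratory genes were thus near the share of all genes. With the NMDA list limited to the length of the control list, when 2.50% of all genes had a member, the expression factors had a count of 4 and the mitochondrial ribosomal protein genes had 7 (8.97%).

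Lists of cytosolic translation were above the share of all genes as defined here, but not under each setting. Of 87 cytosolic ribosomal protein genes 10 (11.5%, 6.36 to 19.9) had a member, 6 at the start, 2 at the 3′ end and 2 with unknown strand. The strongest were Rpl37 (13 and 23.8, 730 bp beyond its 3′ end) and Rpl37a (17.7 and 16.7). The smaller column of all 10 was between 7.62 (Rpl13) and 16.7 (Rpl37a). Of 37 aminoacyl-tRNA synthetase genes, whose products load tRNAs with amino acids, 5 (13.5%, 5.91 to 28.0) had a member, led by Yars (10.8 and 23.8), Sars (11.5 and 11.3) and Tars (12.1 and 9.65). Among 71 genes listed as translation initiation and elongation factors, 6 (8.45%, 3.93 to 17.2, an interval that includes the 4.28% of all genes) had a member over 8 regions. Eef1akmt3, which encodes a methyltransferase acting on an elongation factor, had 2 of the regions (13.2 and 13.1, and 12.7 and 12.7). Eif3i (13.3 and 10.7) and Eif1, with a region at each end (12 and 11.8 at the 3′ end), were next. Shared regions were also frequent at these genes: they lay at an end of 42.5% of cytosolic ribosomal protein genes and 45.9% of the synthetase genes, against 25.8% of all genes. The higher shares of NMDA-only regions ended for part of these lists with the NMDA list limited to the length of the control list. The synthetases then had 1 of 37 (2.70%) and the translation factors 2 of 71 (2.82%), against 2.50% of all genes, while the cytosolic ribosomal protein genes had 5 of 87 (5.75%). At the stricter score the counts were 1, 0 and 4, against 1.04% of all genes.

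Clustered protocadherins, the cell surface proteins that give neurons their individual identity and whose promoters bind CTCF, had the highest share, 14 of 57 (24.6%, 15.2 to 37.1). They also had the highest share with a shared region at an end, 36 of 57 (63.2%), against 25.8% of all genes. The strand of these genes was not in the promoter table. The second column was higher in 13 of the 14 regions, the exception being Pcdhb7 with 18 and 14.7. At Pcdhb17 the columns had 10.0 and 40.7, at Pcdhb14 10.9 and 36.9, and at Pcdhb11 14.1 and 23.0. Neighbouring genes of the cluster are alike in sequence, and how the authors treated reads that fit several places is not given in the sources used here.

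Genes of trafficking and of cilia were also above the share of all genes. Of 59 Rab GTPase genes, regulators of vesicle traffic, 7 (11.9%, 5.87 to 22.5) had a member, among them Rab6b (12.9 and 20.7), the X-linked Rab39b (14.3 and 10.5) and Rab6a (9.04 and 15.4). The Rab6a region was also that of the neighbouring mitochondrial ribosomal protein gene Mrpl48, so 1 region counted in both lists. Of 68 ciliary and centrosomal genes 8 (11.8%, 6.08 to 21.5) had a member, and Cep95 held 2 regions. Cplane2, Cep63 (23.8 and 16.7) and Cep68 (7.90 and 22.6) had the highest summed signal, though Cep68 was low in the first column. With the limited NMDA list the Rab genes had 3 (5.08%) and the ciliary genes 5 (7.35%), against 2.50% of all genes. At the stricter score they had 1 (1.69%) and 3 (4.41%), against 1.04%. The other classes were also above the shares of all genes at these lists. Shared regions lay at an end of 39.0% of Rab and 29.4% of ciliary genes, against 25.8% of all genes. Control-only regions lay at 5.08% and 7.35%, against 3.53%. Of 37 kinetochore and spindle checkpoint genes 3 (8.11%, 2.80 to 21.3, an interval that includes the 4.28% of all genes) had a member. They were Nuf2, Mad1l1 (19.2 and 14.4) and Pmf1 (9.50 and 12.4). Control-only regions also lay at an end of 3 of the 37.

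Zinc finger genes were the largest class by number. Of 465 such genes 30 (6.45%, 4.56 to 9.06) had a member, over 28 regions. The strongest were Zfp953, Zbtb9 (12.1 and 25.6, at its 3′ end) and Zfp131 (14.5 and 21.7). Zkscan5 and Zkscan14 shared a region, as did Zfp646 and Zfp668. Zfp36l2, which is in the list by its name, encodes an RNA-binding protein. Tmem genes, grouped only by their name for a transmembrane protein, had a member in 15 of 238 (6.30%), of which 14 were at the start. The interval of this share, 3.86 to 10.1, included the 4.28% of all genes. The first of these Tmem genes, Tmem63b (16.8 and 25.3), shared its region with Mrpl14, and Tmem69 (23.7 and 16) and Tmem185b (12.5 and 21.8) followed. Tmem genes also exceeded all genes in control-only regions (14 of 238, 5.88%, against 3.53%) and in shared regions (34.9%, against 25.8%). For zinc finger genes these shares, 3.44% and 25.6%, were slightly below those of all genes.

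Classes tied to neuronal activity had shares whose intervals included the 4.28% of all genes. Of 39 immediate early genes, which respond to activity within minutes, 2 (5.13%, 1.42 to 16.9) had a member, while 19 had a shared region at an end. Npas4, an activity-dependent transcription factor, had 18.9 and 31.4, with the summit 388 bp before the start and a control region 412 bp away. Klf6, a Krüppel-like factor, had 20.8 and 26.8, 591 bp before the start, with the nearest control region 607041 bp away. Both were above the third quartile of members in both columns, which was 14.3 and 16.3. When a region counted as NMDA-only unless it overlapped a control region by at least 50% of both, 10 of the 39 immediate early genes (25.6%) had a member, against 6.41% of all genes under that rule. The count was also 10 when no control summit within 100 bp was required, against 8.06% of all genes. Both of these rules admit regions that overlap a control region. The count was 1 (2.56%) with control regions extended by 500 bp, against 3.97% of all genes. It was also 1 with gene ends within 500 bp, against 3.09%. It was 2 at the stricter score and with the limited NMDA list, and 3 (7.69%) within 2 kb, against 6.08%.

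Of 24 later activity-regulated genes none had a member, which leaves an upper Wilson bound of 13.8%. Of 40 synaptic genes Shank3, a postsynaptic scaffold gene, was the sole gene with a member (2.50%, 0.443 to 12.9), and the 4.28% of all genes lies within the intervals of both lists. The Shank3 region lay 725 bp inside the 3′ end (9.02 and 10.1). Among 24 genes of CTCF, cohesin and topoisomerases the sole gene (4.17%) was Tdp2, which encodes an enzyme that removes trapped topoisomerase from DNA ends (18.4 and 12.5). Of 94 potassium channel genes 2 (2.13%, 0.585 to 7.43) had a member. They were Kcnj12 (10.0 and 10.6) and Kcnj4 (9.90 and 9.65), both with low values in each column. Of 375 solute carrier genes 13 (3.47%, 2.04 to 5.84) had a member, near the share of all genes, led by Slc6a8, Slc9a2 (20.3 and 16.3) and Slc25a11 (21.3 and 14.6). Against 3.53% of all genes, control-only regions lay at 6.38% of potassium channel and 8.33% of later activity-regulated genes. Their share was lower at synaptic (2.5%), solute carrier (3.2%) and CTCF, cohesin and topoisomerase genes (0%).

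Chromatin and RNA processing genes were close to the share of all genes. Of 105 chromatin enzymes and remodellers 6 (5.71%, 2.64 to 11.9) had a member, with Cxxc1, Kdm1b and Arid2, a subunit of a BAF-type remodeller (11 and 20.7), the strongest. Tet2, which oxidises methylated cytosine, had 7.86 and 12.7, with the nearest control region 207498 bp away. Of 79 splicing genes 4 (5.06%, 1.99 to 12.3) had a member, led by Sf3a2 (14.4 and 17.9) and Snrpa1 (13.9 and 16.4). Of 83 RING finger genes 5 (6.02%, 2.60 to 13.3) had a member, led by Rnf167 (21.3 and 14.6). Of 24 palmitoyltransferase genes 2 (8.33%, 2.32 to 25.8) had a member, Zdhhc4 (16.3 and 47.9) and Zdhhc13 (14.8 and 12.6). Smaller lists held few members. Among 51 proteasome genes (3.92%) they were Psmd7 and Psme2 (13 and 9.96), and among 75 histone genes (2.67%) H3c6 (11.3 and 40.5) and H3c7 (10.0 and 9.65). Kinesins had 3 of 38 (7.89%, 2.72 to 20.8), led by Kif3a (12.3 and 13.9). F-box genes had 3 of 78 (3.85%), led by Fbxl19 and Fbxo21 (15.6 and 15.3). A sole gene was hit among 39 Hox genes (2.56%, Hoxd9, 12.7 and 13.6) and 56 ubiquitin-specific proteases (1.79%, Usp5, 23.2 and 20.1). Against 3.53% of all genes, control-only regions lay at 7.62% of chromatin, 7.69% of F-box, 5.88% of proteasome and 5.36% of ubiquitin-specific protease genes. Their share was lower at splicing (1.27%), RING finger (1.20%), palmitoyltransferase (0%), histone (2.67%), kinesin (2.63%) and Hox genes (2.56%).

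Olfactory and vomeronasal receptor genes were nearly without members, with 3 of 1465 (0.205%, 0.0697 to 0.600). They were Olfr452 (20.1 and 14), Olfr1382 (15.4 and 9.65) and Olfr543 (12.1 and 9.65). The other classes were as rare at these genes. Shared regions lay at an end of 8 (0.546%), against 25.8% of all genes, and control-only regions at 0, against 3.53%. By chromosome, the share of genes with a member was highest on chromosome 8 (65 of 1043, 6.23%) and chromosome 15 (47 of 776, 6.06%). On the X chromosome it was 11 of 966 genes (1.14%) and on the Y chromosome 0 of 256.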

How the data were processed

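CTCF ChIP-seq regions of control and NMDA-treated cortical neurons were analysed. The series has 8 samples in 4 groups of 2 replicates, and the input libraries were not analysed here. The submitters' processing notes name MACS2, BWA, SAMtools, Trimmomatic and FastQC as tools and mm10 and GRCm38.p6 as builds. Tool versions, thresholds and the handling of repeated reads were not given in the sources used here. The authors deposited 1 region list per condition, each named for the irreproducible discovery rate procedure and made over both replicates, with 33820 control and 36193 NMDA regions. The deposited score runs from 540 to a ceiling of 1000. The deposited signal is a −log10 p-value, and for 36186 of 36186 NMDA regions kept it matched the 2 replicate columns added together, within 0.001. No counts are given, so the depth of the libraries is unknown. Signals were compared only within the NMDA list.

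Regions off chromosomes 1 to 19, X and Y were left out (5 control, 7 NMDA). Gene spans came from the RefSeq table of GRCm38.p6 and strand from its promoter table. Where promoter windows of opposite strands overlapped, 1836 of 1836 matched as reverse complements. No exon or intron annotation was used. Shares have 95% Wilson intervals and differences Newcombe intervals, for counting error only, and regions are not independent samples. No test across samples was possible, so no p-value is given. Alternatives changed the overlap rule, score, list length, distance, gene set, summit position and motif. The same signal range (with either motif) and starts counted at any distance within 1 kb were added after the data were seen.

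Named regions were the 20 with the highest smaller replicate column, the 5 highest in the first column and the 5 highest column ratios above the upper quartile of signal. Up to 3 of each gene list, by summed signal, and 2 at each edge of the rule were added. Some regions that the rule names are not reported here. Other names are said to be chosen later, as was any further member of a list. The members and lists were chosen with earlier results of these data known. On simulated data, 1010 of 1010 regions within 1 kb and 0 of 990 beyond it were placed at the simulated end, 400 of 400 overlap calls and 1000 of 1000 planted motifs were recovered. Python 3.11.15, pandas 2.3.3, numpy 2.4.6, scipy 1.17.1 and matplotlib 3.10.9 were used.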

Additional observations from a re-analysis of the deposited data

How the results depend on the processing

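No paired analysis was possible because each condition has 1 list over both replicates and no test runs across samples. Leaving out a replicate was not possible for the same reason, and a motif search around summits was not run, since it needs a genome sequence.

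The number of members was 831 as reported, 1284 when overlaps under a reciprocal 50% were allowed, 1592 when no control summit within 100 bp was required, 194 at a score of at least 830 and 481 with the NMDA list limited to the length of the control list. The gene count of 936 became 1764 under the summit rule, 227 at the stricter score and 547 with the limited list. The share of NMDA-only regions at gene ends, 14.8%, was 17.4% with reciprocal overlap, 20.6% under the summit rule, 9.14% at the stricter score and 12.1% with the limited list. It was 10.9% within 500 bp, 20.5% within 2 kb and 19.2% with all gene types. The start share of 85.6% was 88.3% under the summit rule, 80.7% at the stricter score, 82.4% with the limited list, 90.0% within 500 bp, 79.4% within 2 kb and 81.4% with all gene types.

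The start difference of 5.62 points from shared regions was 1.43 at the stricter score, 2.73 with the limited list and −1.03 in the same signal range. The median log2 column ratio of 0.16 was 0.34 at the stricter score and 0.22 with the limited list. The motif share of 8.27% was 16.7% (5 of 30) at the stricter score and 23.3% with the looser motif. Its difference of −3.37 points from shared regions was 4.02 at the stricter score, 1.35 with the limited list and 7.01 in the same signal range, all with intervals that include 0, −12.5 with the looser motif, and 5.80 (an interval that includes 0) with the looser motif in the same signal range. The median distance to a control region, 10075 bp, was 2998.5 bp with reciprocal overlap and 282 bp under the summit rule, both of which admit regions that touch a control region. Apart from that construction, and the fewer regions kept by the stricter score and the limited list, the cause of these changes was not tested. Counts of single gene lists stayed within 1.5 times of the reported count in 152 of 240 cases and moved further in 88. Depth is unknown, and it limits how far absence from the control list can be read for regions as weak as these.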

Other observations

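Other sequence patterns were searched in the promoter windows after the printed sequences had been seen, so their counts are a description. As for the core motif, a summit counted if any window around it held the pattern, while all windows were counted singly. The motif of Zfp143, a factor of promoters and loops, was at 9 of the 133 member summits in a window (6.77%, 3.6 to 12.4). It was at 3.65% of such summits of shared regions, in 2.54% of all windows and at 4 of 119 (3.36%) control-only summits. Polrmt was among the 9. The cAMP response element, bound by CREB, was in 7 of 133 (5.26%, 2.57 to 10.5) against 2.12% and 2.24%, and in 6 of 119 (5.04%) under control-only regions, with Moap1, Rce1 and Zscan20 among the genes. The AP-1 motif, bound by Fos and Jun proteins, was in 1 of 133 (0.752%, 0.133 to 4.14), at Rtel1, against 3.23% under shared regions, 1.68% (2 of 119) under control-only regions and 6.99% of all windows. The motif of NRF1, a regulator of nuclear genes for mitochondria, was in 16 of 133 (12%, 7.54 to 18.6) against 10.6% and 6.38%, and in 15 of 119 (12.6%) under control-only regions, and that of YY1 in 4 of 133 (3.01%, 1.18 to 7.48) against 1.70%, 1.21% and 0.840% (1 of 119) in the same order. Intervals are 95% Wilson intervals. In the same signal range, Zfp143 was at 3 of 70 member summits and 0 of 64 shared summits, and the cAMP response element at 5 of 70 and 1 of 64. In the same order, NRF1 was at 9 of 70 and 4 of 64 and YY1 at 2 of 70 and 0 of 64. AP-1 went the other way, at 1 of 70 and 5 of 64. No test was made, and no match is a binding site by itself.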
